A study of Homo sapiens with 44 samples.

Results

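The replication-dependent histone genes are the 71 protein-coding genes whose GENCODE 29 symbols begin with HIST1H, HIST2H, HIST3H or HIST4H. All 71 were found among the 60499 genes of the count table. They comprise 6 genes of linker histone H1, 17 of H2A, 18 of H2B, 15 of H3 and 15 of H4. The HIST1 cluster on chromosome 6 holds 55 of them, the HIST2 and HIST3 clusters on chromosome 1 hold 12 and 3, and HIST4H4 lies alone on chromosome 12. In these data the mean summed level of the 71 genes, in scaled counts, was highest in pluripotent cells and lower in every other group. From day 1 to day 3 of cardiac differentiation 5 of the 69 genes tested were called lower, a share close to the 6.8% of all genes. Among them were HIST1H3C and HIST1H2BB, neighbours near the start of the HIST1 cluster. At day 3 they had 1 to 3 and 4.06 to 7.05 counts per library.

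Histone proteins wrap DNA into nucleosomes, which hold H2A, H2B, H3 and H4 in the core, while H1 binds the linker DNA between nucleosomes. The replication-dependent genes supply histones for newly copied DNA in S phase, and most of their mRNAs end in a conserved stem-loop in place of a poly(A) tail. Stem-loop binding protein holds that stem-loop, and the mRNA is broken down when DNA synthesis stops. Some of these genes also make polyadenylated mRNA, mainly described in cells that have left the cell cycle. Libraries prepared from total RNA, as here, can hold both kinds of mRNA, whereas libraries selected on poly(A) miss most of the first.

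RNA was measured in 44 wells of the established human embryonic stem cell line H1 as it was differentiated to cardiomyocytes by switching Wnt signalling on and then off. The laminin under the pluripotent cells was LN-521, and in the remaining groups LN-221 was present as well. Cells were in Nutristem at day 0, in RPMI 1640 with B27 lacking insulin and the GSK3 inhibitor CHIR99021 at days 1 and 3, in the same base medium with the Wnt secretion inhibitor IWP2 at day 5, without either compound at days 7 and 9, and with CTS B-27 Supplement from day 11 to day 90. The labels give amounts of 10 mg CHIR99021 at day 0 and 5 mg IWP2 at day 3, with no volume. Groups of 3 wells were the pluripotent cells and days 0, 1, 3, 14, 20, 30 and 90, and groups of 5 wells were days 5, 7, 9 and 11. The growth protocol speaks of triplicates and the series text of 3 wells for day 11, but every well with a label was used. The labels number the wells as biological replicates of 1 line and do not say whether they came from separate differentiations, so p-values measure the spread between wells, which may be technical.

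Libraries held 6937136 to 33498022 estimated counts, and 61 to 70 of the 71 genes had more than 3 counts in each. Levels are given as CPM, counts scaled by TMM to a common library size, in which 3 counts correspond to 0.0919 to 0.410 CPM depending on the library. The pluripotency factor POU5F1 averaged 1503 ± 61.2 CPM (SD, n = 3) in pluripotent cells and 2.10 ± 1.38 CPM (SD, n = 3) at day 90, while cardiac troponin TNNT2 averaged 8.64 ± 1.71 and 3121 ± 697 CPM (SD, n = 3 each). Day 11 wells 1 and 2 stood apart from the other 3 wells of that day: AFP, a fetal liver protein, was at 3890 and 7287 CPM against 80.3 to 97.0, TNNT2 was at 1011 and 648 CPM against 1630 to 1645, and the RNA integrity number (RIN) was 8.6 and 8.0 against 9.2 to 9.5. Day 20 well 3 had a summed level of 17 S phase genes of 1460 CPM against 553 and 417 in the other 2 wells, with a RIN of 9.3 against 8.2 and 8.0. Results for days 11 to 30 are therefore also given without these 3 wells.

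The stem-loop is shown here because it defines the mRNA form under study. By annotation 62 of the 71 genes have coding transcripts of a single exon, 16 overlap another annotated gene and 12 share a stretch of 150 bases with another of the 71, so their reads may be split between copies. HIST1H4J, HIST1H2AI and HIST2H2AA3, whose results are given below, are among these 12. Their counts were whole numbers in only 4, 0 and 0 of the 44 libraries. The annotation gives no sequence after the stop codon for 35 of the 71 genes. In 31 of the other 36, the letters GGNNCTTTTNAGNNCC follow the stop codon, 22 to 67 bases after it with a median of 36. The same search found 44 of 19659 protein-coding genes (0.224%), so 13 lie outside the family. The motif occurred in 5 versions, of which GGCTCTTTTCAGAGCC was shared by 17 genes. One example of each version follows, 5′ to 3′ on the coding strand, with 5 bases on either side and the stem-loop in capitals. HIST2H2BE is on chromosome 1 (GRCh38, chr1:149884459-149886652, minus strand), HIST1H2BC on chromosome 6 (chr6:26114873-26123926, minus), HIST1H4J (chr6:27824108-27824480, plus), HIST2H4A (chr1:149832659-149839767, plus) and HIST1H2AG (chr6:27133042-27135291, plus). HIST2H4A and HIST1H2AG were chosen only for their motif.
HIST2H2BE: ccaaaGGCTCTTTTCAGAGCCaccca
HIST1H2BC: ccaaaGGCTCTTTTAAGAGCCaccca
HIST1H4J: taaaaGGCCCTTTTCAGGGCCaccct
HIST2H4A: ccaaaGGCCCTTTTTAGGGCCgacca
HIST1H2AG: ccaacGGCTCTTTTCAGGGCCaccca

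The promoters of 3 genes near the start of the HIST1 cluster are shown because their genes took different courses below: HIST1H2BB (an H2B gene) and HIST1H3C (an H3 gene) dropped out early and HIST1H3B (an H3 gene) did not. HIST1H2BC, an H2B gene with a known polyadenylated form, is the fourth. Each run covers 250 bases before to 50 after the RefSeq start (GRCh38.p14, read 5′ to 3′ on the gene's strand). Capitals mark the TATA box letters TATAAA, the CCAAT box or the octamer ATTTGCAT on either strand. HIST1H2BB is at chr6:26043664-26043963 (minus), HIST1H3C at chr6:26045134-26045433 (plus), HIST1H3B at chr6:26032050-26032349 (minus) and HIST1H2BC at chr6:26123877-26124176 (minus).
HIST1H2BB: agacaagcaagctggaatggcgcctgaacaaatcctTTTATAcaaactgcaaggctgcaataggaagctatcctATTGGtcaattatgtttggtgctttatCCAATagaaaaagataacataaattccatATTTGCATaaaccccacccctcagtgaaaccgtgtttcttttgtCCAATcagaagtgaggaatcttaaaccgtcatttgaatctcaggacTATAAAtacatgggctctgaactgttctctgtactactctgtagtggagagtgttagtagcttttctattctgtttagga
HIST1H3C: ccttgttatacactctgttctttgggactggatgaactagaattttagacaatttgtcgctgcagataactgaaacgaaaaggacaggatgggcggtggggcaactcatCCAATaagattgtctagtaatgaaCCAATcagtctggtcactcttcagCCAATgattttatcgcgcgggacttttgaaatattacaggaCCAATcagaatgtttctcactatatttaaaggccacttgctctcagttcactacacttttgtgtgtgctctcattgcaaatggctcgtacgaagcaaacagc
HIST1H3B: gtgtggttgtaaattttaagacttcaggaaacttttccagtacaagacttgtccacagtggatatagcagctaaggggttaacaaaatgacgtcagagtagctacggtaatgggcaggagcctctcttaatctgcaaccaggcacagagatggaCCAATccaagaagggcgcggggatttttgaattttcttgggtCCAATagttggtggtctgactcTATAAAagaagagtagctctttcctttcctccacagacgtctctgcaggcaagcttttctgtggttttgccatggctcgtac
HIST1H2BC: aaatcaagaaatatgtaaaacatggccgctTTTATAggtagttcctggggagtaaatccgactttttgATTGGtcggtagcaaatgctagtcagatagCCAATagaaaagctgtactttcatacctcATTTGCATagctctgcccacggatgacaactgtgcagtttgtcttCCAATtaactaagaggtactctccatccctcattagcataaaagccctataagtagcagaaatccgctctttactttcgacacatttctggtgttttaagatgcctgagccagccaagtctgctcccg

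HIST1H2BB and HIST1H2BC hold the letters of all 3 motifs, HIST1H3B holds TATAAA and CCAAT, and HIST1H3C holds CCAAT alone. The only TATAAA match of HIST1H2BC is on the opposite strand, near the upstream end of the run and far from the start. Over the 70 RefSeq starts of the 66 genes with an entry, TATAAA was found at 67.1%, against 11.5% of 35116 promoters of all genes. CCAAT was found at 85.7% against 34.6%, being present at every start of an H1, H2A, H2B or H3 gene and at 3 of 13 of H4. The octamer, which POU-domain factors such as OCT1 bind, was found at 38.6% against 1.77%, with 15 of 20 H2B starts, 11 of 16 H2A starts, 1 of 15 H3 starts and none of the 6 H1 or 13 H4 starts. These are letter matches, which may overlap one another, and not measured binding.

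The 71 genes together took about 1% of all counts in pluripotent cells and well under that at the end of the time course. Their share was 0.981, 0.953 and 1.11% in the 3 pluripotent wells and 0.768, 0.835 and 0.848% at day 0. It was 0.672, 0.811 and 0.762% at day 1 and 1.02, 0.986 and 0.834% at day 3. Day 0 wells thus all lay below the pluripotent wells, day 1 overlapped day 0, and day 3 lay above day 1. At days 5 and 7 the share ranged from 0.499 to 0.841% and from 0.636 to 0.835%, and at day 9 it ranged from 0.301 to 0.511%. Day 9 wells were all below day 7 wells. From day 11 the wells of a group disagreed: 0.605 and 0.621% in day 11 wells 1 and 2 against 0.225 to 0.270% in the others, 0.387, 0.717 and 0.113% in day 14 wells 2, 3 and 6, and 0.156, 0.118 and 0.838% at day 20. The share was 0.172, 0.123 and 0.277% at day 30 and 0.314, 0.135 and 0.276% at day 90, and every well of these 2 days was below every day 0 well. Counting error is small beside these gaps: the 95% Wilson interval was 0.977 to 0.985% for pluripotent well 1 and 0.116 to 0.121% for day 20 well 2, which covers counting error only. In bulk samples, fewer cells in S phase and less histone RNA per cell cannot be told apart.

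**Figure D1:**
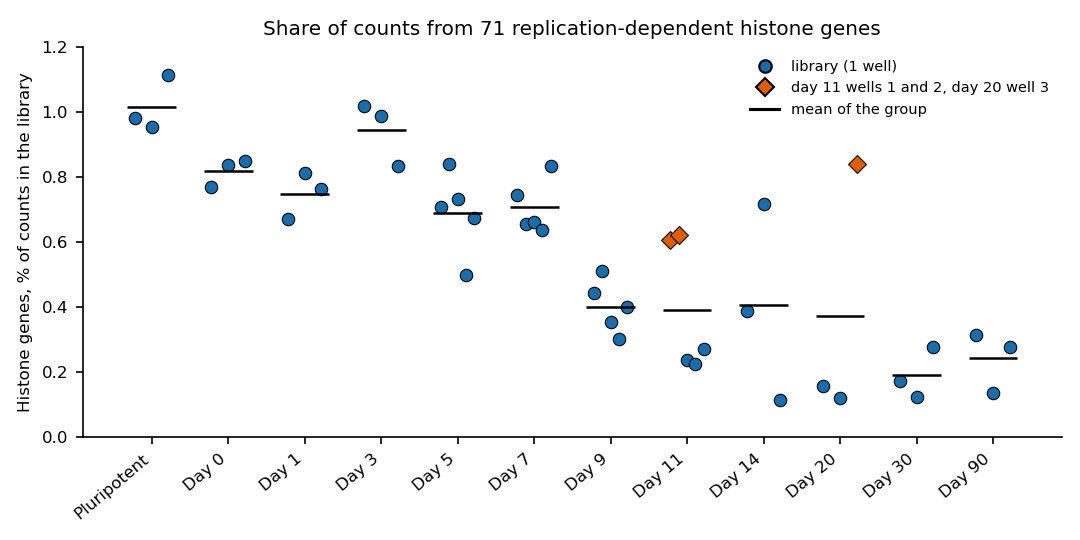
Share of all counts (percent, y axis) taken by the 71 replication-dependent histone genes in each of the 44 libraries, by group (x axis); points are wells, bars are group means and diamonds mark day 11 wells 1 and 2 and day 20 well 3. The pluripotent wells sit at 0.953 to 1.11% and the day 90 wells at 0.135 to 0.314%.

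Summed over all 71 genes, the scaled level was 10490 ± 992 CPM in pluripotent cells, 7731 ± 407 at day 0, 4135 ± 1100 at day 9 (n = 5) and 2980 ± 1102 at day 90 (SD, n = 3 elsewhere). Day 9 was at 53.5% of day 0, with H1 at 54.6%, H2A at 59.7%, H2B at 51.5%, H3 at 48.8% and H4 at 52.6%. Day 90 was at 38.6% of day 0, with H3 lowest at 32.8%. At other days the classes lay further apart. Day 1 was at 71.6% of day 0 for H1 and 101% for H2A, day 3 was at 137% for H2A, 135% for H2B, 104% for H3 and 102% for H4, and day 30 was at 32.8% for H2B and 17.7% for H3. The sums depend on what they are scaled to. By TPM of protein-coding genes, day 9 was at 53.3% and day 90 at 32.1% of day 0. By the deposited TPM of all genes, of which protein-coding genes took 15.4 to 41.9% in a library, they were at 39.2% and 18.1%, and day 3 lay above pluripotent cells, at 104.8% of their level, where scaled counts put it below. These sums describe the levels, and no difference between classes was tested.

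The histone sum and a list of 17 S phase genes (among them PCNA, the MCM helicase subunits and the nucleotide enzymes RRM2 and TYMS) did not move in step over the first 3 days. The S phase sum was 3331 ± 69.7 CPM in pluripotent cells, 2306 ± 66.5 at day 0, 3080 ± 72.7 at day 1 and 1938 ± 145 at day 3 (SD, n = 3). From day 0 to day 1 it went to 133.6% while the histone sum went to 91.9%, and from day 1 to day 3 it went to 62.9% while the histone sum went to 129.2%. The histone sum per S phase sum was 3.26 to 3.41 in the day 0 wells, 2.10 to 2.42 at day 1, and 4.42 to 4.95 at day 3, and these 3 ranges did not overlap. It was 3.53 to 5.82 at day 5, 5.79 to 7.43 at day 7 and 4.10 to 7.96 at day 9, so that day 5 overlapped days 3 and 7, and day 9 overlapped days 3, 5 and 7. By day 90 it was 3.68 to 4.34. Day 11 wells 1 and 2 had S phase sums of 1025 and 975 CPM against 478 to 521 in the other 3, and day 14 wells 2, 3 and 6 had 725, 1160 and 548 CPM. The wells of days 14 and 20 had the same order in both sums, and day 11 wells 1 and 2 were above the other 3 in both. Day 30 differed: wells 1 and 10 had histone sums of 1924 and 2539 CPM and S phase sums of 1004 and 642 CPM, so the well highest in one was not highest in the other. The RIN of the day 14 wells was 7.4, 9.8 and 8.2, and the part of RNA quality and of other cell types in these differences was not tested.

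**Figure D2:**
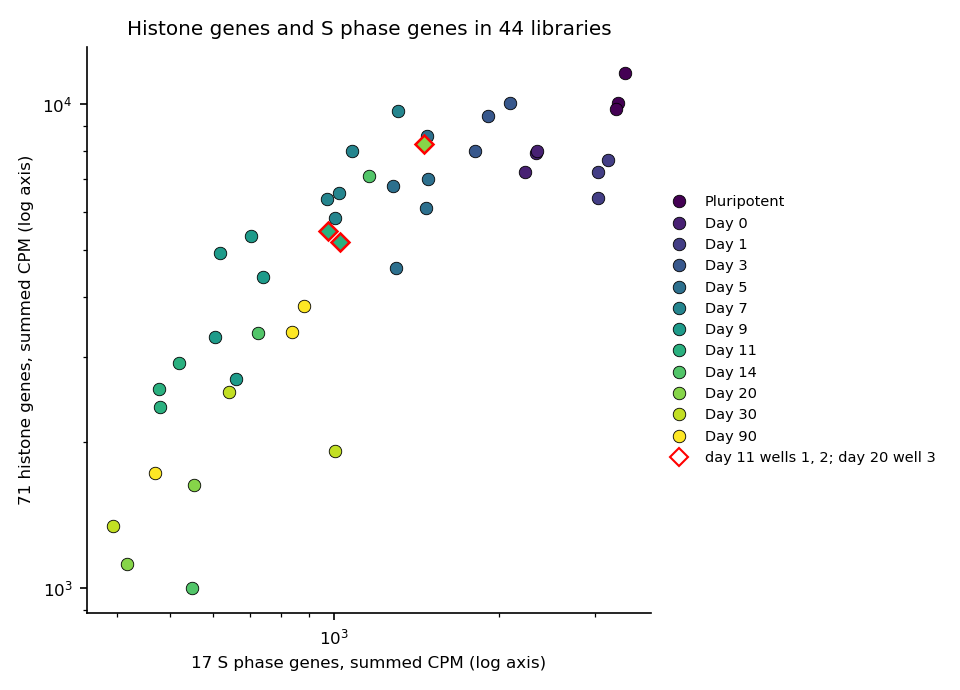
Summed CPM of the 71 histone genes (y axis, log scale) against summed CPM of 17 S phase genes (x axis, log scale), 1 point per library coloured by group, with red diamonds for day 11 wells 1 and 2 and day 20 well 3. Day 1 wells lie below day 3 wells on the histone axis and above them on the S phase axis.

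Differences between groups were tested gene by gene with edgeR's quasi-likelihood test over 22955 genes, and a gene was called at a Benjamini-Hochberg adjusted p under 0.05 with a log2 fold change of at least 1 in size. Of the 71 genes, 69 had enough counts to be tested, all but HIST1H2AA and HIST1H4G. HIST1H2BA and HIST3H3 passed that filter only through the pluripotent wells and so had to be lower elsewhere. Consecutive comparisons share wells, as do those against day 0. In none of the 14 comparisons was a histone gene called higher by this test. Some counts from other fits stand below without the share of all genes called in the same fit. Those counts show how far a result depends on the fit and cannot be set against all genes. The wells of a group lay in 2 to 5 of the 5 sequencing lanes, and with the lane as a term the counts below became 24 (day 0 to 9), 31 (day 0 to 90) and 4 (day 1 to 3), and were equal to those given elsewhere.

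From pluripotent cells to day 0, when cells were grown to confluence on the second coating, 2 of 69 genes were called lower, HIST1H3C and HIST1H2BB, against 0.183% of all genes tested. All 69 log2 fold changes were below 0, with a median of -0.49 against 0.00 for all genes, and 8 (11.6%) had an unadjusted p under 0.05, against 20.5% of all genes. HIST1H3C (ENSG00000278272, H3 class, chr6:26045411-26045821, plus strand, a single annotated coding exon) was at 11.0, 9.56 and 13.5 CPM in pluripotent wells and 1.64, 2.73 and 2.18 CPM at day 0. HIST1H2BB (ENSG00000276410, H2B class, chr6:26043277-26043657, minus strand, also a single coding exon) was at 6.34, 5.29 and 5.89 CPM and then 1.25, 1.51 and 1.01 CPM. Neither gene's groups overlapped. HIST1H3C fell by 2.37 on the log2 scale (SE 0.60, adjusted p = 0.014, edgeR) and HIST1H2BB by 2.21 (SE 0.57, adjusted p = 0.016, edgeR). Leaving out any well but pluripotent well 2 left 0 genes called, and leaving out that well left 1, while the log2 fold changes stayed between -2.55 and -2.20 for HIST1H3C and between -2.37 and -2.08 for HIST1H2BB. With only the 2 groups fitted 7 genes were called lower, and with limma 6. Without the 3 wells that stood apart on days 11 and 20, 4 genes were called lower (0.223% of all genes), HIST1H1A and HIST1H1T being added.

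HIST1H3B (chr6, minus strand) encodes an H3 protein like HIST1H3C, lies near it and was far more abundant. It was at 213, 202 and 257 CPM in pluripotent wells and 174, 181 and 187 CPM at day 0. The groups did not overlap, but the log2 fold change of -0.31 (adjusted p = 0.85, edgeR) was not called. Counts of HIST1H3C were whole numbers in all 44 libraries, to within 0.005, so no split of its reads with other genes was seen. Whole counts do not show that every read was unique to it, and from day 3 on it had few counts. Those of HIST1H2BB were whole in only 16 libraries.

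From day 0 to day 1, with CHIR99021 added, edgeR called 0 of 69 histone genes, against 13.5% of all genes, and 0 had an unadjusted p under 0.05, against 32.8%. DESeq2 and limma also called 0. The median log2 fold change was -0.07 against -0.03 for all genes.

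Between day 1 and day 3, 5 genes were called lower, against 6.8% of all genes, while the median of the 69 was 0.25 (0.07 for all genes). The 5 were HIST1H3C, HIST1H2BB, the linker gene HIST1H1A and the testis genes HIST1H1T and HIST1H2BA. HIST1H3C was at 1.42, 2.31 and 2.27 CPM at day 1 and 0.040, 0.112 and 0.113 CPM at day 3, where each library held 1 to 3 counts of it. It fell by 4.42 (SE 0.76, adjusted p = 1.9e-05, edgeR) and stayed between 0 and 0.244 CPM in every later well. HIST1H2BB was at 2.02, 1.82 and 1.45 CPM and then 0.161, 0.262 and 0.191 CPM, and fell by 3.08 (SE 0.63, adjusted p = 0.00025, edgeR). For both genes every day 3 well lay below every day 1 well. In the same interval HIST1H3B went to 276, 261 and 215 CPM, a log2 fold change of 0.61 that was not called (adjusted p = 0.52, edgeR). Without the 3 wells that stood apart, 2 genes were called higher in this interval (10.9% of all genes), HIST1H1C and HIST1H3D, the latter named because the count is small, and 5 lower (7.25%), and with only the 2 groups fitted 3 were called higher and 5 lower.

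Several of the genes with the largest falls lay near the start of the HIST1 cluster, ordered by position on chromosome 6. Among the first 10 genes of the cluster, 9 were tested. From day 0 to day 9 their median log2 fold change was -2.68 with 7 called lower. For the rest of the cluster it was -1.11 with 20 of 44 called lower. Of all genes, 14.6% were called lower. The 7 include HIST1H2BA, which passed the filter only through the pluripotent wells. HIST1H3A, chosen after its values were seen as the first H3 gene of the cluster, was at 74.8, 72.9 and 84.2 CPM in pluripotent wells, 41.9, 44.7 and 41.2 CPM at day 0 and 28.6, 23.0 and 18.8 CPM at day 3. Its 3 groups did not overlap, each lower than the one before, although HIST1H3B between it and HIST1H3C behaved otherwise. The split at 10 genes, which ends with HIST1H3C, was also chosen with values known and carries no test.

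**Figure D3:**
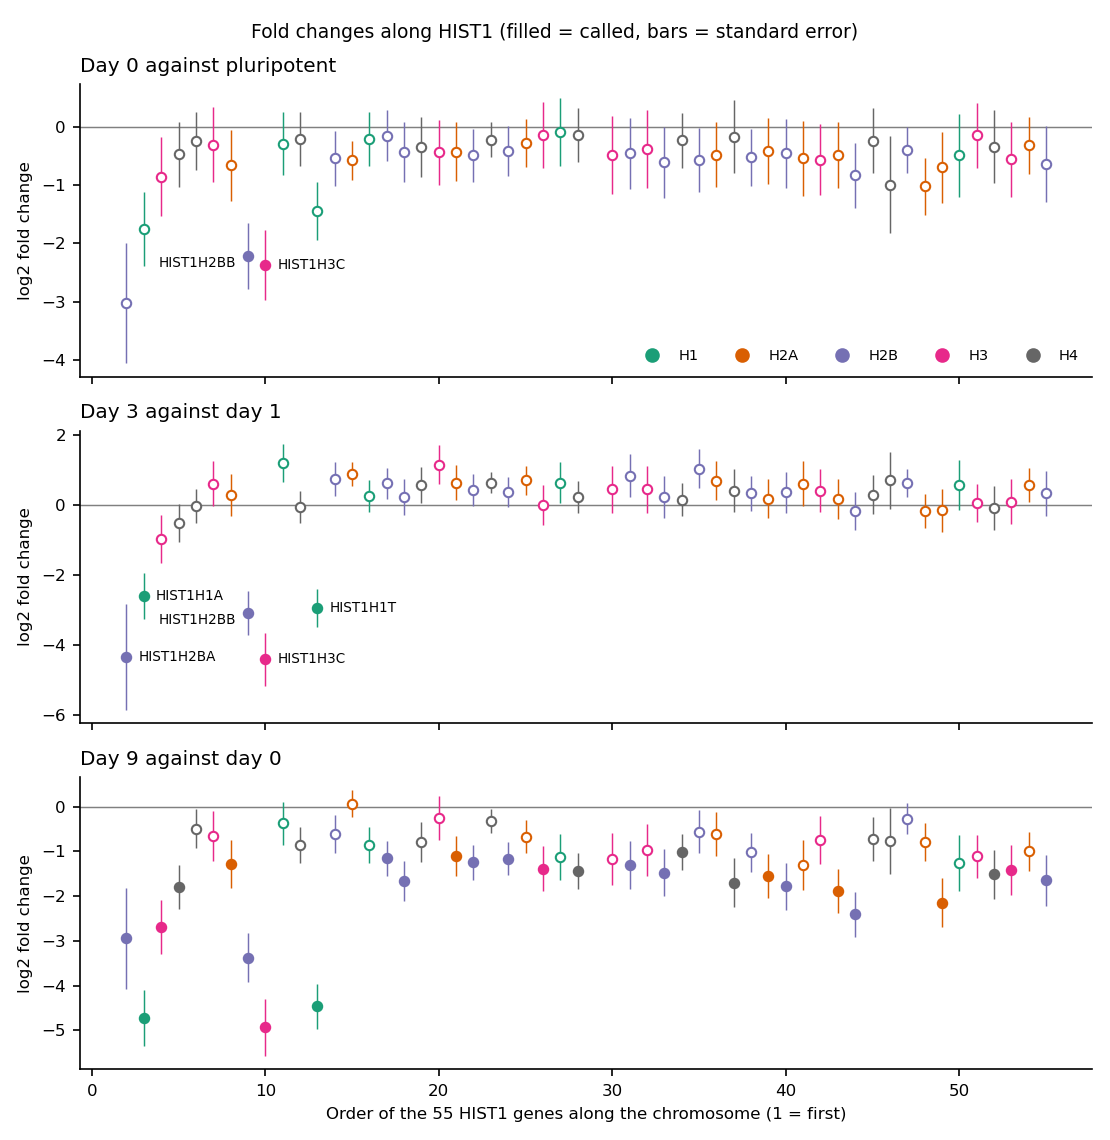
Log2 fold change (y axis) of the 55 HIST1 genes in their order along chromosome 6 (x axis) for day 0 against pluripotent, day 3 against day 1 and day 9 against day 0; bars are standard errors, colours are histone classes and filled points are genes called. HIST1H3C and HIST1H2BB, neighbours in the order, are the only 2 called in the first panel, at -2.37 and -2.21.

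Linker histones parted ways. HIST1H1A (chr6:26017085-26017732, minus strand), which encodes the H1.1 subtype, was at 40.2, 41.4 and 39.6 CPM in pluripotent cells, 10.9, 12.8 and 12.1 CPM at day 0 and 19.8, 23.6 and 18.9 CPM at day 1. At day 3 it was at 4.49, 3.50 and 2.30 CPM, and at day 5 at 0.619, 1.28, 1.03, 0.174 and 0.149 CPM. None of these groups overlapped. It fell by 2.60 from day 1 to day 3 (SE 0.66, adjusted p = 0.0025, edgeR) and by 2.40 from day 3 to day 5 (SE 0.60, adjusted p = 0.004, edgeR), where it was the only one of 69 genes called, against 4.34% of all genes called lower (3 genes, against 4.59%, without the 3 wells that stood apart). Its log2 fold change of -1.76 from pluripotent cells to day 0 was not called (adjusted p = 0.091, edgeR).

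The abundant linker genes moved less. HIST1H1B, which encodes H1.5, was at 370, 402 and 410 CPM at day 0 and 143, 31.2 and 118 CPM at day 90, and fell by 2.01 (SE 0.74, adjusted p = 0.02, edgeR). HIST1H1D, for H1.3, was at 262, 276 and 283 CPM and then 72.8, 25.3 and 64.2 CPM, and fell by 2.34 (SE 0.62, adjusted p = 0.0016, edgeR). Day 90 wells lay below day 0 wells for both, with well 4 lowest. HIST1H1C, for H1.2, was at 340, 332 and 357 CPM and then 218, 138 and 229 CPM, a difference of -0.82 that was not called (adjusted p = 0.21, edgeR), and HIST1H1E, for H1.4, differed by -0.71 (adjusted p = 0.2, edgeR). Per length, as a share of the summed TPM of the 6 H1 genes, HIST1H1C went from 28.1% ± 1.04 in pluripotent cells to 43.0% ± 4.84 at day 90 and HIST1H1E from 16.1% ± 0.711 to 28.4% ± 4.41. HIST1H1B went from 34.1% ± 0.758 to 17.9% ± 6.91 and HIST1H1D from 18.6% ± 0.138 to 10.6% ± 2.00 (SD, n = 3). These shares are descriptions with no test.

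H1F0, the replication-independent linker gene known to accumulate in resting cells, was higher at days 9 and 90 than at day 0, by a course with several turns. It averaged 85.6 ± 5.18 CPM at day 0, 49.6 ± 6.10 at day 1 and 167 ± 28.9 at day 3 (SD, n = 3), then 268 ± 48.4 at day 5 and 214 ± 13.5 at day 9 (SD, n = 5). It averaged 129 ± 60.9 at day 14, 122 ± 33.8 at day 20, 195 ± 22.6 at day 30 and 251 ± 84.7 CPM at day 90 (SD, n = 3). It rose by 1.32 from day 0 to day 9 (SE 0.24, adjusted p = 2.4e-05, edgeR) and by 1.55 from day 0 to day 90 (SE 0.27, adjusted p = 5.4e-06, edgeR).

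**Figure D4:**
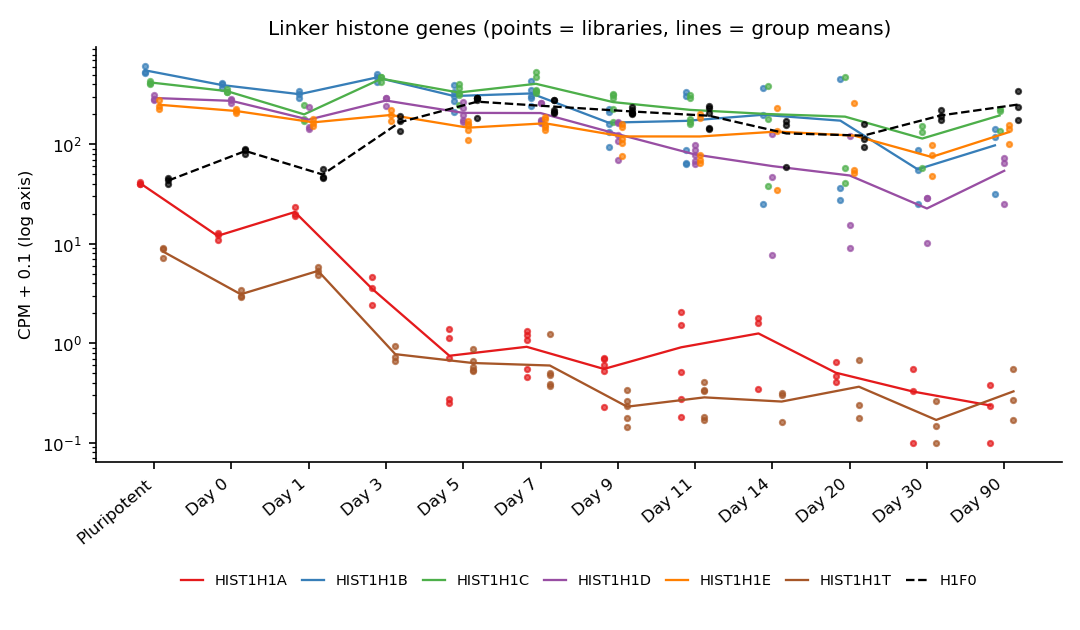
CPM plus a small constant (y axis, log scale) of the 6 HIST1H1 genes and of H1F0 (dashed) by group (x axis); points are libraries and lines join group means. HIST1H1A runs from 39.6 to 41.4 CPM in pluripotent wells to at most 0.278 CPM at day 90, while H1F0 ends at a mean of 251 CPM.

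From day 5 to day 7 edgeR called 0 of 69 genes, against 3.65% of all genes, with 0 at an unadjusted p under 0.05 (16.4% of all genes) and 0 called by DESeq2 or limma. From day 7 to day 9, 67 of the 69 log2 fold changes were below 0, with a median of -0.88 against 0.00 for all genes, and 35 (50.7%) had an unadjusted p under 0.05, against 12% of all genes. Only HIST1H1T was called lower, against 0.261% of all genes, with 1 to 6 counts in the day 9 libraries. It was at 0.398, 0.287, 0.275, 0.383 and 1.15 CPM in day 7 wells 1, 2, 3, 4 and 10 and 0.076, 0.135, 0.236, 0.163 and 0.043 CPM in the same-numbered wells at day 9. The groups did not overlap, and it fell by 1.87 (SE 0.49, adjusted p = 0.033, edgeR), but the call was lost when any well was left out other than day 7 wells 2, 3 and 4 and day 9 well 3. Day 7 well 10, which had the highest HIST1H1T level of its day, also had the highest summed histone level (9685 CPM against 5809 to 8003) and POU5F1 at 33.7 CPM against 3.34 to 5.57, whose part in the result was not tested. Without day 11 wells 1 and 2 and day 20 well 3, which enter the shared estimate of the spread, 3 genes were called lower (0.499% of all genes), with only the 2 groups fitted 8, and with limma 0.

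Over the whole specification interval from day 0 to day 9, 33 of 69 histone genes were called lower (47.8%), against 14.6% of all genes, and none higher, against 17.1%, and the median log2 fold change was -1.11 against 0.08. Among the 33 were HIST1H2BA and HIST3H3, with 1 to 4 and 2 to 7 counts in the day 0 wells. Both passed the filter only through the pluripotent wells. By class, 2 of 6 H1, 5 of 16 H2A, 12 of 18 H2B, 7 of 15 H3 and 7 of 14 H4 genes were called. HIST1H3C and HIST1H1A led, having fallen by 4.93 (SE 0.64, adjusted p = 4.4e-08) and 4.72 (SE 0.62, adjusted p = 6.7e-08, edgeR). HIST1H2BB fell by 3.37 (SE 0.56, adjusted p = 4e-06, edgeR) and HIST1H3E, an abundant H3 gene, by 1.38 (SE 0.50, adjusted p = 0.021, edgeR), from 142, 167 and 162 CPM to 71.7, 79.0, 48.4, 41.4 and 61.1 CPM in day 9 wells 1, 2, 3, 4 and 10. HIST1H4J, the most abundant H4 gene by TPM, was at 325, 386 and 370 CPM and then 278, 302, 149, 117 and 253 CPM, and its difference of -0.72 was not called (adjusted p = 0.24, edgeR). Day 9 wells 3 and 4 were the lowest for both genes. Without day 0 well 3 the count was 21, and without the 3 wells that stood apart it was 42 (14.7% of all genes).

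Of 9 genes known for polyadenylated forms, 2 were called lower at day 9 against day 0 (HIST1H2BD and HIST4H4, 22.2% against 14.6% of all genes), with a median of -0.61. At day 90 against day 0 the number was 3 (these and HIST1H2BK, 33.3% against 19.2%), with a median of -0.82. HIST2H2BE, an H2B gene of the HIST2 cluster, was at 107, 124 and 124 CPM at day 0, 130, 138, 115, 83.9 and 139 CPM in day 9 wells 1, 2, 3, 4 and 10, and 151, 111 and 162 CPM at day 90. All 3 groups overlapped, with log2 fold changes of 0.04 at day 9 (SE 0.25, adjusted p = 0.92, edgeR) and 0.26 at day 90 (SE 0.28, adjusted p = 0.45, edgeR). The deposited TPM of all genes put it lower at the later days. HIST2H2BE averaged 188 ± 16.6 TPM at day 0 and 88.25 ± 11.2 at day 90 (SD, n = 3 each). At day 9 it averaged 150 ± 41.5 TPM (SD, n = 5). Within H2B its share of TPM was 7.05% in pluripotent cells and 16.1% at day 90.

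HIST1H2AC, which shares its promoter region with HIST1H2BC shown above, was at 136, 163 and 151 CPM at day 0 and 115, 76.9 and 120 CPM at day 90, a difference of -0.53 (adjusted p = 0.18, edgeR). HIST1H2BC differed by -0.95 (adjusted p = 0.091, edgeR). HIST1H2BK was at 106, 112 and 116 CPM at day 0 and 53.8, 17.2 and 44.9 CPM at day 90, and fell by 1.52 (SE 0.51, adjusted p = 0.011, edgeR). HIST1H2BD fell by 1.27 (SE 0.45, adjusted p = 0.016, edgeR), from 241, 252 and 262 CPM to 124, 65.7 and 124 CPM, and HIST4H4 by 1.16 (SE 0.37, adjusted p = 0.0081, edgeR). HIST1H2BJ and HIST3H2A differed by -0.79 and -0.57 and were not called. Whether counted reads carried a poly(A) tail is not recorded in these libraries. By annotation, 10 of the 22 genes with a long or spliced model were called lower at day 90 against day 0 (median -1.21). Of the 47 with a short single-exon model, 36 were called lower (median -1.77). The share of all genes called lower was 19.2%. The difference between the 2 kinds of model was not tested.

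**Figure D5:**
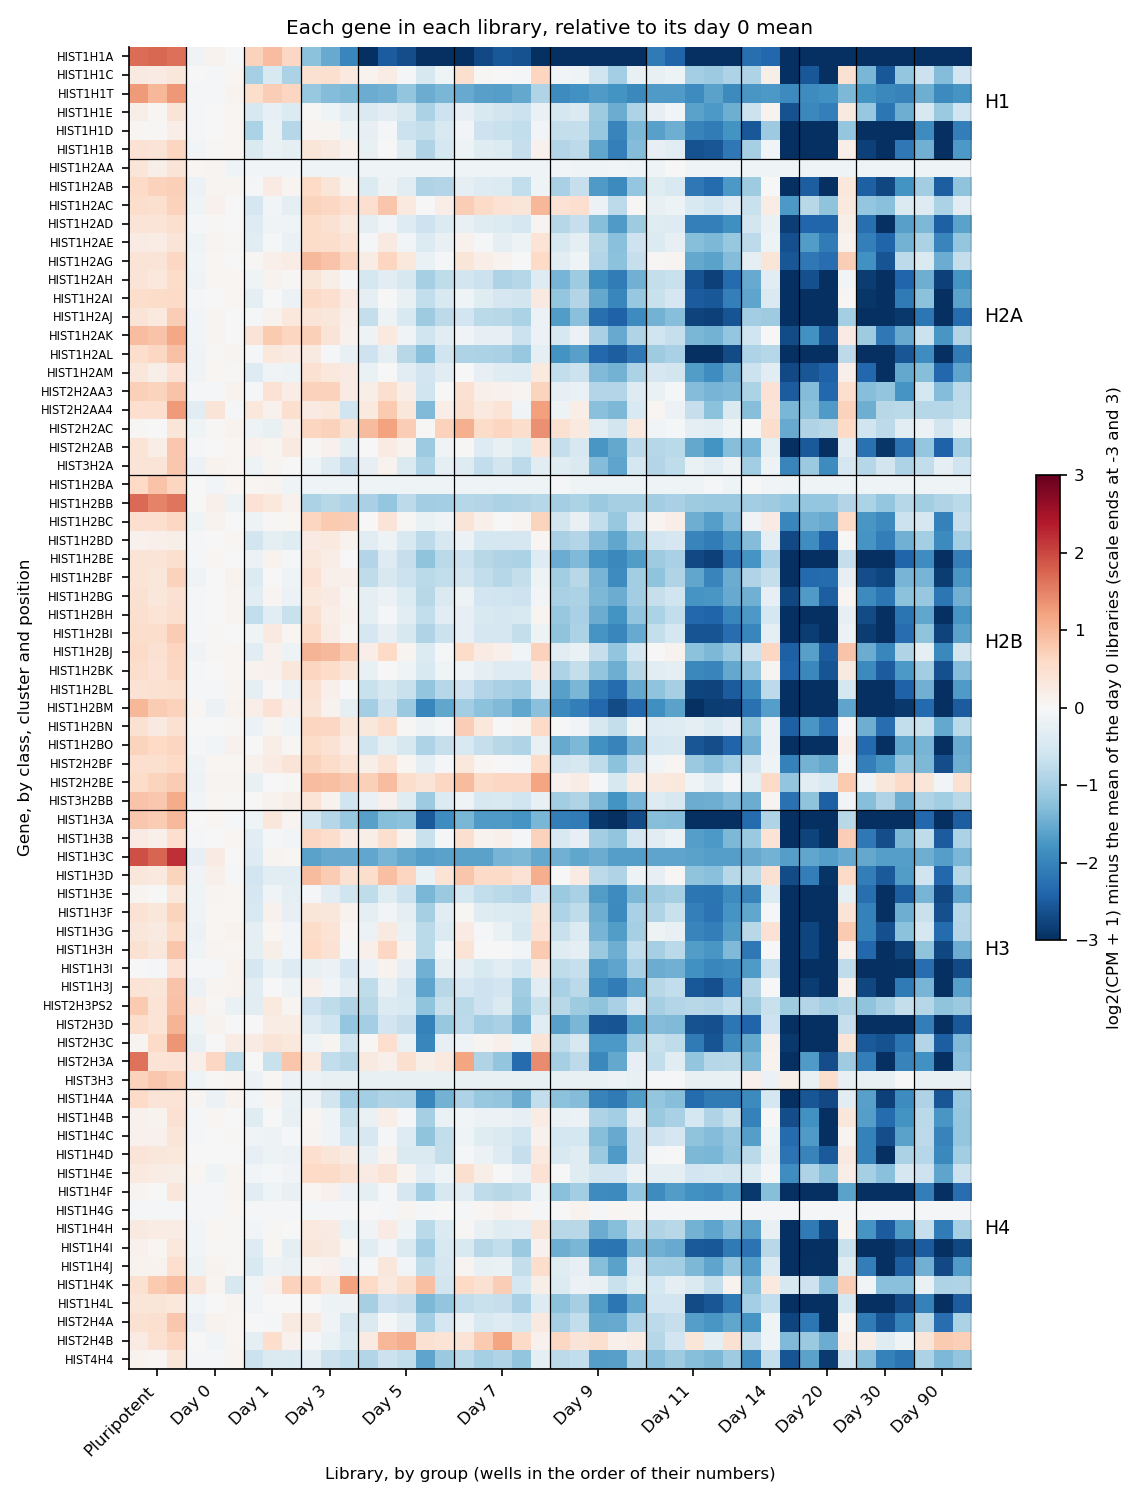
Log2(CPM + 1) of each of the 71 histone genes (rows, ordered by class, cluster and position) in each of the 44 libraries (columns), minus the gene's day 0 mean; blue is lower and red is higher. HIST1H1A and HIST1H3A turn blue by day 3. In these scaled counts HIST2H2BE stays close to its day 0 level at day 90 (log2 fold change 0.26).

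Genes known for expression in testis were detected at low levels in the pluripotent cells. HIST1H1T was at 8.72, 7.04 and 8.90 CPM there, 2.89, 2.83 and 3.32 CPM at day 0, 4.75, 5.72 and 5.26 CPM at day 1 and 0.834, 0.633 and 0.566 CPM at day 3. The groups did not overlap, and it fell by 2.94 from day 1 to day 3 (SE 0.54, adjusted p = 4.8e-05, edgeR). HIST1H2BA was at 0.643, 0.980 and 0.693 CPM in pluripotent wells, at most 0.161 CPM at days 0 and 1, and 0 in the 3 day 3 wells. Its call from day 1 to day 3 rests on at most 5 counts in a library and was lost without a low-count filter, with DESeq2, with limma, with the lane as a term and when any well but day 1 well 3 was left out. HIST3H3 was at 0.884, 1.04 and 0.911 CPM in pluripotent wells and at 0 at day 90, and HIST1H2AA, which was not tested, at 0.402, 0.245 and 0.437 CPM in pluripotent wells.

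After day 9 the consecutive comparisons held few calls. EdgeR called 0 of 69 genes from day 9 to 11, from day 11 to 14, from day 14 to 20, from day 20 to 30 and from day 30 to 90, against 1.63, 0.697, 0.0479, 2.02 and 5.09% of all genes. At an unadjusted p under 0.05 the histone genes numbered 0 in the first 3 of these, against 17.2, 18.2 and 5.87% of all genes. They numbered 32 from day 20 to 30 (46.4% against 15.6%) and 4 from day 30 to 90 (5.8% against 23.2%). DESeq2 called 1 gene in each of the last 2 comparisons and 0 in the others, and limma called 0 in all 5. These counts turned on the 3 wells that stood apart. Without them, 0 genes were called from day 9 to 11 (4.02% of all genes, median -0.74, against -0.10 with them), 15 were called higher from day 11 to 14 (7.88% of all genes higher, median 0.64 against 0.10), 29 lower from day 14 to 20 (1.29% of all genes lower, median -1.60 against -0.07) and 1 higher from day 20 to 30 (1.86%, median 0.41 against -1.08). With single wells left out, 4 genes were called lower from day 11 to 14 without day 14 well 3, and 7 lower from day 14 to 20 without day 20 well 3. The share of all genes called in these fits is not given here, so the counts cannot be set against it. Day 14 well 3 had the highest histone and S phase sums of its day, as given above. The 3 wells that stood apart were likewise the highest of their days in both sums, yet only they were left out. The rise to day 14 and the fall to day 20 without them cannot be told apart from this choice of wells. The part of day 14 well 3 in the result was not tested. From day 30 to day 90 the median was 0.75 (-0.07 for all genes), with 6 of the 69 values below 0 and none called.

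Between day 9 and day 90, 3 genes were called lower, against 12% of all genes. HIST1H3I, an H3 gene, was at 60.5, 64.2, 31.2, 34.0 and 52.5 CPM in day 9 wells 1, 2, 3, 4 and 10 and 20.7, 4.73 and 15.2 CPM in day 90 wells 2, 4 and 5, and fell by 1.83 (SE 0.54, adjusted p = 0.0063, edgeR). HIST1H4F, an H4 gene, fell by 1.18 (SE 0.45, adjusted p = 0.034, edgeR), from between 20.3 and 38.0 CPM to 17.9, 5.29 and 15.3 CPM. HIST2H2BF, outside the rule for named genes and named because the count is small, fell by 1.01. Day 90 wells lay below day 9 wells for all 3, and well 4 was the lowest each time: without it 0 genes were called. Without day 9 well 1, 2 or 10 the count was 1, and without the 3 wells that stood apart it was 6 (11.6% of all genes). With only the 2 groups fitted it was 5, and with limma 18. The share of all genes called in these 2 fits is not given here. Limma used TPM of all genes, by which the histone sum at day 90 was 46.2% of that at day 9, against 72.1% in scaled counts.

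Against day 0, 46 of 69 genes were called lower at day 90 (66.7%), against 19.2% of all genes, and none higher, against 20.8%, with a median of -1.53 against 0.06. The 46 also include HIST1H2BA and HIST3H3, with few counts at day 0 and tested only because of the pluripotent wells. Calls were made for 4 of 6 H1, 9 of 16 H2A, 13 of 18 H2B, 9 of 15 H3 and 11 of 14 H4 genes. HIST1H1A fell by 6.47 (SE 0.92, adjusted p = 2.1e-07, edgeR), to 0.134, 0.278 and 0 CPM. In those wells 3 counts correspond to 0.134, 0.209 and 0.168 CPM, so the size of this fall is uncertain. Of the most abundant genes of their classes by TPM, HIST1H4J fell by 1.87 (SE 0.58, adjusted p = 0.0062, edgeR), HIST1H3E by 1.81 (SE 0.59, adjusted p = 0.0093), HIST1H2AI by 1.79 (SE 0.67, adjusted p = 0.022), HIST1H2AE by 1.31 (SE 0.42, adjusted p = 0.0083) and HIST1H4D by 1.22 (SE 0.52, adjusted p = 0.045, edgeR). HIST1H3B, HIST1H3F, HIST1H4E and HIST2H2AA3 were not called, with log2 fold changes of -1.23, -1.18, -0.90 and -0.84. HIST1H3B was at 106, 30.96 and 93.7 CPM at day 90, all below its day 0 wells, and its share of the summed H3 TPM was 18.6% in pluripotent cells and 27.9% at day 90. Without day 90 well 4 the count of calls was 23. Leaving out the 3 wells that stood apart gave 52 (18.9% of all genes). Fitting the replicate number as a block gave 28.

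Of 13 genes whose products transcribe or process histone mRNA, CPSF3 and CPSF2, subunits of the cleavage complex, were called lower at day 90 against day 0, having fallen by 1.65 (SE 0.15, adjusted p = 9.8e-12, edgeR) and 1.26 (SE 0.17, adjusted p = 9.6e-08, edgeR), and none was called higher. These 2 are 15.4% of the list, against 19.2% of all genes called lower. At day 9 against day 0, LSM11, a subunit of the U7 particle, was the only one of the 13 called (7.69%, against 17.1% of all genes higher), having risen by 1.01 (SE 0.15, adjusted p = 4.7e-07, edgeR). SLBP, which binds the stem-loop, averaged 53.0 ± 5.14 CPM in pluripotent cells, 31.9 ± 1.14 at day 0, 42.1 ± 6.76 at day 9 (n = 5) and 27.5 ± 10.5 at day 90 (SD, n = 3), and was not called between pluripotent cells and day 0 or between day 0 and either later day. NPAT, the coactivator of histone transcription, differed by -0.48 from day 0 to day 9 (adjusted p = 0.005, edgeR), under the fold threshold.

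Against day 0, 17.1% of all genes were called higher and 14.6% lower at day 9, and 20.8% higher and 19.2% lower at day 90. Of 11 replication-independent histone genes, H1F0 and the macroH2A genes H2AFY and H2AFY2 were called higher at day 9 against day 0, the latter 2 by 1.63 (SE 0.14) and 1.81 (SE 0.19). H2AFZ and H2AFX fell by 1.88 (SE 0.27) and 1.01 (SE 0.26). At day 90 against day 0 the same 3 were called higher, and H2AFZ, H3F3B and the centromeric CENPA lower, by 1.55, 1.19 and 1.67. Of 11 histone chaperones, 6 (54.5%) were called lower at day 9 and none higher, among them the CAF-1 subunits CHAF1A and CHAF1B, which fell by 2.12 and 1.67, and NASP, which fell by 2.18. Of the 17 S phase genes, 14 (82.4%) were called lower at day 9 (median -1.89) and 13 (76.5%) at day 90 (median -1.62), where CCNE2 was called higher by 2.03.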

How the data were processed

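Total RNA from 44 wells was made into stranded libraries and sequenced as paired reads of 150 bases, per the labels' protocols. The authors deposited 1 table of estimated counts, unscaled, and 1 of TPM, which allow for transcript length. They also deposited a score of RNA integrity (RIN), the sequencing lane and the sequencing batch of each well. The sequencing batch was not a term in any fit, and its part in the results was not tested. The submitters' processing notes name cutadapt, STAR 2.5.2b, RSEM 1.2.31 and hg38, while their roles, the annotation and the strand setting are not given in the sources used here. Of all count values 93.8% were whole to within 0.005.

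Counts were rounded and fitted with edgeR 4.0.16 (R 4.3.3) over all 44 libraries with 1 mean per group, after filterByExpr and TMM scaling, which left 22955 genes. P-values were adjusted over those genes, and 14 contrasts were taken. Levels are CPM after TMM scaling, and totals per library ran from 6937136 to 33498022. Within-class shares use the deposited TPM. No value per gene in the count table was left out. Names, coordinates and stem-loops come from GENCODE 29 (GRCh38), and promoters from RefSeq (GRCh38.p14), in which HIST1H2AH, HIST1H3I, HIST1H3J, HIST1H4A and HIST1H4C have no entry.

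The 71 genes, the gene lists and the tests were chosen with earlier results of these data known. Genes were named if they were among the 2 largest rises or falls called in a comparison, among the 3 most abundant of their class by mean TPM, HIST1H3C or HIST1H2BB, or on the lists of polyadenylated and testis forms. Tested on simulated counts for day 9 against day 0 (22955 genes), the fit recovered 181 of 200 genes changed 4-fold and called 1 unchanged gene. The changed genes all averaged at least 1 CPM, and no wells that stand apart were simulated. Recovery of genes at lower levels was therefore not tested. Alternatives were RLE scaling, DESeq2 1.42.0, limma 3.58.1 on log2(TPM + 1), no filter, a filter of 1 CPM in 3 libraries, fits of only the 2 groups, the replicate number as a block and each well left out. Leaving out the 3 wells that stand apart, summing those genes that share a 150-base stretch the lane as a term and the sums of TPM over all genes were chosen after seeing the data.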

Additional observations from a re-analysis of the deposited data

Results flagged for a closer look

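In groups of 5 wells, 6 of 134 sets of values examined held 1 well whose gap to the next well exceeded Dixon's 95% limit, where chance gives about 1 in 20 (5%). At day 7, well 10 stood high for HIST1H1T, at 1.15 CPM against 0.275 to 0.398 in the other 4 wells. The same well stood high for HIST1H3I, at 125 CPM against 71.9 to 86.5. The other 4 values come from 1 or 2 counts where the remaining wells were at 0. They were HIST1H2BA in day 9 well 1 at 0.0379 CPM, HIST3H3 in day 9 well 4 at 0.0325 CPM, HIST1H2AA in day 11 well 2 at 0.0922 CPM and HIST1H2BA in day 11 well 6 at 0.0445 CPM.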

How the results depend on the processing

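Across the alternatives other than single wells left out, 114 counts of called genes stayed within 1.5 times the value reported and 26 did not. No fold change of a named gene turned its sign, and 102 values kept their call while 13 lost it, all of the testis genes HIST1H1T, HIST1H2BA and HIST3H3 or of HIST1H4F. From pluripotent cells to day 0 the count of 2 became 7 when only the 2 groups were fitted, 6 with limma and 4 without the 3 wells that stand apart. From day 1 to 3 it became 8 in the fit of only the 2 groups (3 higher and 5 lower). From day 3 to 5 it became 2 with RLE scaling, without a filter, with the stricter filter and with DESeq2, and 3 with only the 2 groups, with limma and without the 3 wells. From day 7 to 9 the count of 1 became 0 with the replicate block and with limma, 8 with only the 2 groups and 3 without the 3 wells. Without these wells it became 15 from day 11 to 14, 29 from day 14 to 20 and 1 from day 20 to 30, where DESeq2 also gave 1. Day 14 well 3, also high in the histone and S phase sums, was kept in that fit. From day 30 to 90 the count of 0 became 3 with the replicate block and 1 with DESeq2. From day 9 to 90 the count of 3 became 1 with the block, 5 with only the 2 groups, 18 with limma and 6 without the 3 wells, and from day 0 to 90 the 46 became 28 with the block. The deviations of same-numbered wells correlated at -0.101 to 0.611. In no comparison with 3 or more pairs was every r over 0.1, so the numbers were not taken to pair the wells. This rule does not cover comparisons with 2 pairs. There r was 0.611 and 0.553 from day 14 to 20, and 0.342 and 0.102 from day 11 to 14. It was -0.101 and 0.367 from day 9 to 11, 0.146 and 0.012 from day 20 to 30, and 0.096 and 0.155 from day 9 to 90. From day 7 to 9, with more pairs, r was 0.055 to 0.454. The block moved no other count by over 1.5 times, and the cause of these changes was not tested.

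With each well left out in turn, the count ranged from 0 to 1 for day 0 against pluripotent, 4 to 5 from day 1 to 3, 1 to 2 from day 3 to 5, 0 to 1 from day 7 to 9, 0 to 4 from day 11 to 14, 0 to 7 from day 14 to 20, 0 to 2 from day 20 to 30, 0 to 1 from day 30 to 90, 21 to 32 from day 0 to 9, 0 to 3 from day 9 to 90 and 23 to 44 from day 0 to 90. It was 0 throughout for the other 3 comparisons. Low counts limit HIST1H2BA, HIST3H3 and, from day 3 on, HIST1H3C and HIST1H2BB. They also limit HIST1H1T from day 9 on and HIST1H1A at day 90.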
